A study of Homo sapiens with 4 samples.

Results

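RNA sequencing of LNCaP cells was used to follow 9 genes of MHC class I antigen presentation, HLA-B, HLA-C, HLA-E, B2M, TAP1, TAP2, TAPBP, ERAP1 and NLRC5, when the KDM5 family of H3K4 demethylases was inhibited. The genes were taken by name, on the main chromosomes, from the 60675 genes of the count files, and each had 1 copy there. LNCaP is an androgen-responsive human prostate cancer cell line derived from a lymph node metastasis. All 4 cultures received 1 nM R1881, a synthetic androgen, for 72 h in hormone-depleted medium. In 2 of them R1881 was combined with vehicle (DMSO, as the methods of the study give it), and in the other two with 50 µM CPI-455, an inhibitor of the KDM5 demethylases. The comparison therefore asks what CPI-455 does to these genes while androgen is present, in 1 cell line, and no culture without androgen was analysed here. The deposited values are fragment counts per gene. They were scaled with TMM library factors to CPM, the count per 1000000 counted fragments, and fold changes are given as log2 of CPI-455 over vehicle, so that a negative value means lower expression with CPI-455. SE is the standard error of a log2 fold change and FDR its Benjamini-Hochberg adjusted p-value.

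MHC class I molecules show peptides from inside the cell to CD8+ T cells. Each consists of a polymorphic heavy chain, such as those encoded by HLA-B and HLA-C, bound to β2-microglobulin, the product of B2M. HLA-E is a less variable heavy chain that is read mainly by NK cell receptors. Peptides made by the proteasome are carried into the endoplasmic reticulum by the TAP transporter, a heterodimer of TAP1 and TAP2, are trimmed there by the aminopeptidase ERAP1, and are loaded with the help of tapasin, encoded by TAPBP. NLRC5 is the transactivator that binds the class I promoters through RFX, CREB/ATF and NF-Y factors. Prostate cancer cells, LNCaP among them, are known for low class I presentation.

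Promoter sequences are shown for the classical heavy chains, their light chain and the TAP subunits. The choice used their difference in direction between vehicle and CPI-455. Their sets of short regulatory motifs were not all the same, and HLA-B and B2M, with estimates of opposite sign, held the same kinds. Whether the motifs go with the direction was not tested. RefSeq promoter windows were matched for 7 of the 9 genes, without HLA-E and NLRC5. The 250 bases before the RefSeq start of 5 genes are given here 5′ to 3′ on the strand of the gene, with their positions on GRCh38.p14. Each lies on the reverse strand of chr6:31357180-31357429 (HLA-B), chr6:31272093-31272342 (HLA-C), chr6:32853705-32853954 (TAP1) and chr6:32838740-32838989 (TAP2), and on the forward strand of chr15:44711267-44711516 (B2M). Capitals mark matches, on either strand, to the letters GGANTNNCC (NF-κB-like), AANNGAAA (IRF core), TGACG (CRE core), AGCAAC (part of an X1 box), CCAAT and GGGCGG (GC box), and neighbouring matches run together.
HLA-B: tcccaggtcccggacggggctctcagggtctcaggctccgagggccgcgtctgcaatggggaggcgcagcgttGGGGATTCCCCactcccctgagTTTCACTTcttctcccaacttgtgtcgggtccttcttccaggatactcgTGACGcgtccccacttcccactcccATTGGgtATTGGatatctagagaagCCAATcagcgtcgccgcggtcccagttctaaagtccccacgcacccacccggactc
HLA-C: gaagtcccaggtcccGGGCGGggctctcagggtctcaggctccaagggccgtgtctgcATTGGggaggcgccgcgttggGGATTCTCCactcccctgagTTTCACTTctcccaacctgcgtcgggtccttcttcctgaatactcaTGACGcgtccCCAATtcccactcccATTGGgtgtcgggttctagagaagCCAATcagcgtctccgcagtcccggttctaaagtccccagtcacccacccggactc
B2M: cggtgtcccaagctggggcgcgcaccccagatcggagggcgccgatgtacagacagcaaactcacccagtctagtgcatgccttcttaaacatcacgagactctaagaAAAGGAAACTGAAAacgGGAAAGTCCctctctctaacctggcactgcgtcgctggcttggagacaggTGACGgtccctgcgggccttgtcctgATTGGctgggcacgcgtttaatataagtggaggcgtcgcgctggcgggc
TAP1: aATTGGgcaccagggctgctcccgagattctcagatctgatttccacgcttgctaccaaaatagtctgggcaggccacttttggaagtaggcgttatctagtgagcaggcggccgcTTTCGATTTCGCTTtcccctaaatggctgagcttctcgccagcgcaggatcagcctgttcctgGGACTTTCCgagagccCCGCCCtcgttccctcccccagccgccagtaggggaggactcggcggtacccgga
TAP2: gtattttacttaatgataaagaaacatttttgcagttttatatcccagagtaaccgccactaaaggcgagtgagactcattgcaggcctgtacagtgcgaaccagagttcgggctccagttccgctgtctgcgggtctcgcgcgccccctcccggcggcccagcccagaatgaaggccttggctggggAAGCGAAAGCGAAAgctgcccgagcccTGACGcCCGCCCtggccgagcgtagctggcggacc
In HLA-B the NF-κB-like letters began 177 and 175 bases before the start, in overlap on the 2 strands, and in HLA-C they began 171 bases before it. The IRF core letters began 155 and 151 bases and the CRE core letters 106 and 105 bases before the starts of HLA-B and HLA-C. B2M held the same 3 kinds of letters nearer to its start, with an IRF core pair from 142 and 136, NF-κB-like letters from 125 and a CRE core from 75 bases. TAP1 and TAP2 each held an overlapping pair of IRF cores, beginning 134 and 128 bases before the start in TAP1 and 62 and 56 bases in TAP2. NF-κB-like letters were found in the window of TAP1, from 71 bases, and the CRE core letters in that of TAP2, from 35 bases. Of 35116 RefSeq promoter windows of the same length, 4211 held the NF-κB-like letters, 20.3% the IRF core, 21.2% the CRE core, 10.3% the X1 letters, 32.0% CCAAT and 42.6% the GC box. The X1 letters were in none of the 7 windows. A search for exact letters cannot show that an X1 site of other letters is absent. Of the windows not printed, that of TAPBP held 2 IRF cores, 1 NF-κB-like match and 3 GC boxes. That of ERAP1 held 1 CCAAT match and none of the other letters. These matches are descriptions of the reference sequence, and binding was not measured.

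The vehicle libraries held 19623553 and 20690819 counted fragments and the CPI-455 libraries 9522920 and 5401588, so low genes were measured less precisely with CPI-455. A level of 3 counts, taken as the limit of detection, corresponded to 0.142 and 0.137 CPM in the vehicle libraries against 0.337 and 0.595 CPM in the CPI-455 libraries, and this covers counting error only. All 10 listed luminal prostate markers were counted in every library, of which 6 were called lower with CPI-455, KLK3 among them, none was called higher, and 2 had a positive log2 fold change. Leukocyte markers summed to between 4.02 and 4.85 CPM in the vehicle libraries against 11.5 and 12.5 CPM in the CPI-455 libraries over 12 genes, of which CD3D, CD2 and MS4A1 had no counts in any library and NKG7 was the only one called, higher from 7 and 12 counts to 42 and 34. Stromal markers summed to between 16.5 and 21.98 CPM and endothelial markers to at most 1.65 CPM over all 4 libraries. Long non-coding RNA genes took 1.55% to 1.71% of the counts with vehicle and 7.32% to 8.79% with CPI-455, of which MALAT1 alone made up 0.0884% to 0.114% and 4.95% to 6.49% of all counts. Genes of the mitochondrial genome took 1.91% to 2.43% with vehicle and 0.967% to 1.24% with CPI-455. Among them MT-ND1, MT-CO1 and MT-CYB fell by far more than this sum, with log2 fold changes of -4.97, -4.32 and -4.72, all called lower. This difference in RNA content moves with the treatment, and its part in the results was not tested beyond the alternatives given in the closing section. The values are shares of the RNA counted, so a change in RNA per cell cannot be told apart from a change in the other RNA.

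Calls required both an FDR below 0.05 and a 2-fold or larger difference, where edgeR's quasi-likelihood test was run over 17600 genes. All 9 class I genes passed the filter on low counts and were tested. Of these, TAP1 and ERAP1 were called, both lower with CPI-455, and none was called higher. Across all genes tested 42.4% were called in either direction, 21.3% lower and 21.0% higher, so 2 of 9 is no more than the background, and the counts of called genes in the lists further on are to be read against the same shares. Among the protein-coding genes tested, 24.4% were called lower and 15.6% higher, and their median was -0.21 on the log2 scale. At the FDR threshold alone, 5 of the 9 passed (HLA-C, B2M, TAP1, TAP2 and ERAP1), against 62.6% of all genes tested, and the levels of the groups did not overlap for 6, against 81.9% of all genes tested. The median log2 fold change of the 9 genes was -0.10, close to the -0.04 of all genes tested, with a range from -1.80 for TAP1 to 0.84 for TAP2.

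**Figure D1:**
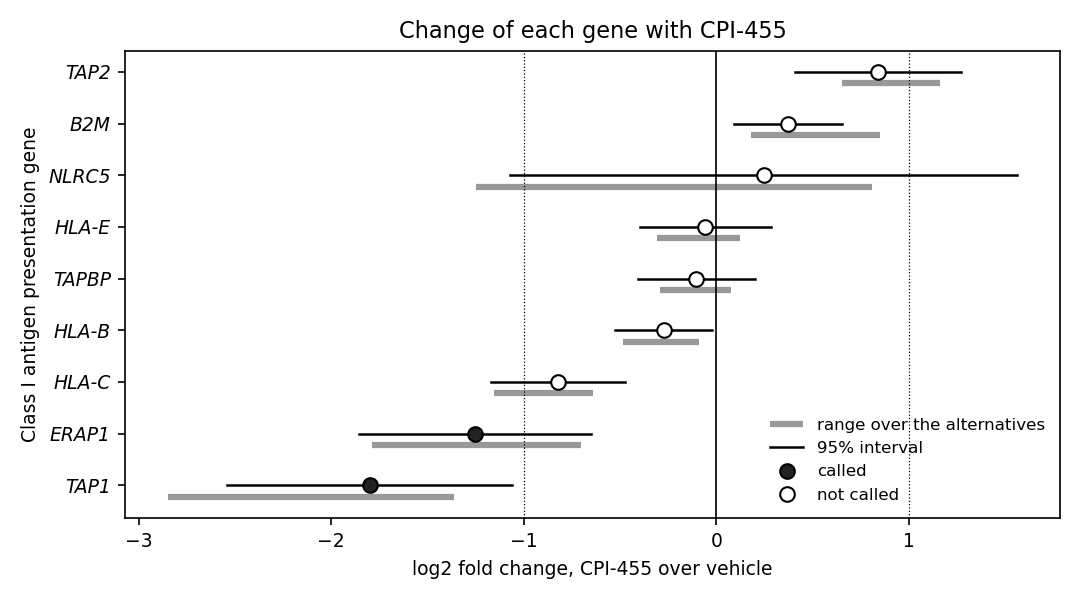
Log2 fold change of CPI-455 over vehicle (x axis) for each class I gene (y axis), with filled points for called genes, open points for the others, thin lines for the 95% interval and grey bars for the range over the alternative settings. TAP1 (-1.80) and ERAP1 (-1.25) lie below the dotted line of a 2-fold decrease, and TAP2 (0.84) lies on the other side of 0.

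With vehicle, the heavy chain genes had the highest levels of the 9 genes per length, and with CPI-455 B2M was above HLA-E. HLA-C (ENSG00000204525, reverse strand of chromosome 6 from 31268749 to 31272130) had 203 and 226 CPM in the vehicle libraries against 140 and 102 CPM in the CPI-455 libraries. All values with vehicle were above those with CPI-455. HLA-C changed by -0.82 on the log2 scale (SE 0.15, FDR = 0.001298, edgeR's quasi-likelihood test), a 1.77-fold lower level that stayed short of 2-fold. HLA-C passed the 2-fold threshold without replicate 1 of CPI-455 (-1.09), with library totals alone (-1.01) and with values corrected for exon length and GC content (-1.15). HLA-B (ENSG00000234745, reverse strand of chromosome 6 from 31353872 to 31357188), the neighbouring heavy chain gene, had 147 and 149 CPM in the vehicle libraries against 119 and 126 CPM in the CPI-455 libraries. The groups did not overlap, yet the difference was small, at -0.27 on the log2 scale (SE 0.11, FDR = 0.05646), and it passed the FDR threshold only in part of the alternatives. HLA-B shared 542 of its 3012 exon bases with a pseudogene on the opposite strand that had no counts. HLA-E (ENSG00000204592, forward strand of chromosome 6 from 30489467 to 30494205) had 75.7 and 76.4 CPM in the vehicle libraries against 63.3 and 83.9 CPM in the CPI-455 libraries. The CPI-455 replicates lay on either side of the vehicle values, and the log2 fold change was -0.06 with a 95% interval from -0.40 to 0.28 (FDR = 0.7608).

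B2M (ENSG00000166710, forward strand of chromosome 15 from 44711477 to 44718877), which encodes the light chain shared by all class I molecules, had 139 and 126 CPM in the vehicle libraries against 158 and 185 CPM in the CPI-455 libraries. Both CPI-455 libraries were above both vehicle libraries. The log2 fold change of 0.37 (SE 0.12, FDR = 0.02677) was well under 2-fold, and it was 0.85 with values corrected for exon length and GC content. With a library left out it passed the FDR threshold in 1 of 4 fits. The estimates of HLA-B, HLA-C and HLA-E thus lay below 0 and that of B2M above it. Of these heavy chain genes only HLA-C passed the FDR threshold, and the interval of HLA-E included 0. The ratio of the heavy chain genes to B2M was compared within each library on the scale of CPM per kb of annotated exon. It is formed from the same values, so it is not separate evidence. HLA-B, HLA-C and HLA-E together were 6.81 and 7.99 times the level of B2M with vehicle and 4.49 and 3.64 times with CPI-455. The ratio was lower in both CPI-455 libraries (exact permutation test, 2-sided, p = 0.3333, which is the smallest value that 2 against 2 libraries can give). HLA-C made up 52.2% and 54.6% of the summed heavy chain level with vehicle and 47.8% and 36.7% with CPI-455.

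**Figure D2:**
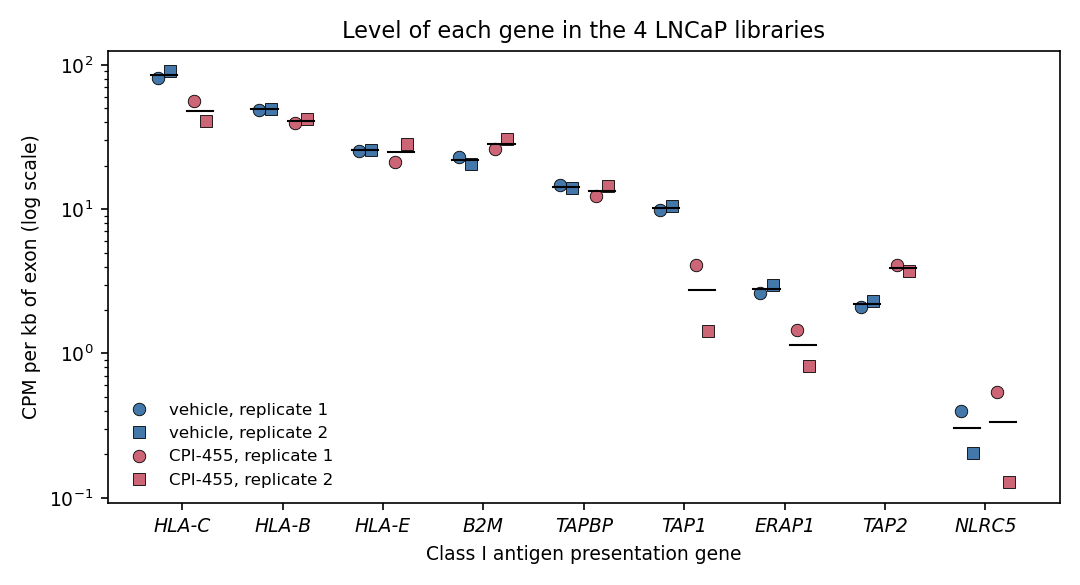
Level of each class I gene in CPM per kb of annotated exon, shared bases included, on a log axis (y axis), by gene (x axis), in the 2 vehicle libraries (blue) and the 2 CPI-455 libraries (red), with a line at each group mean. HLA-C was the highest gene with a mean of 85.6 with vehicle, and NLRC5 the lowest at 0.302.

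The TAP transporter genes differed in direction, and TAP1 alone of them was called. TAP1 (ENSG00000168394, reverse strand of chromosome 6 from 32845209 to 32853978) had 953 and 1048 counts in the vehicle libraries against 166 and 33 counts in the CPI-455 libraries, or 45.1 and 48.0 CPM against 18.7 and 6.54 CPM. TAP1 changed by -1.80 on the log2 scale (SE 0.33, FDR = 0.001133), a 3.48-fold decrease. The CPI-455 replicates differed by more than the vehicle replicates, and the log2 fold change was -1.36 without replicate 2 of CPI-455 and -2.85 without replicate 1, called in both. TAP2 (ENSG00000204267, reverse strand of chromosome 6 from 32821833 to 32838780) had 282 and 322 counts in the vehicle libraries against 234 and 120 in the CPI-455 libraries, which after scaling were 13.4 and 14.7 CPM against 26.3 and 23.8 CPM. Its log2 fold change was 0.84 (SE 0.19, FDR = 0.004036), a 1.79-fold higher level that was not called and that missed the FDR threshold without replicate 1 of vehicle (0.74, FDR = 0.08996). TAP2 passed the 2-fold threshold with upper-quartile normalization (1.01), with only protein-coding genes counted (1.02) and with values corrected for exon length and GC content (1.16). The 95% intervals of the changes, -2.54 to -1.06 for TAP1 and 0.41 to 1.27 for TAP2, did not overlap.

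**Figure D3:**
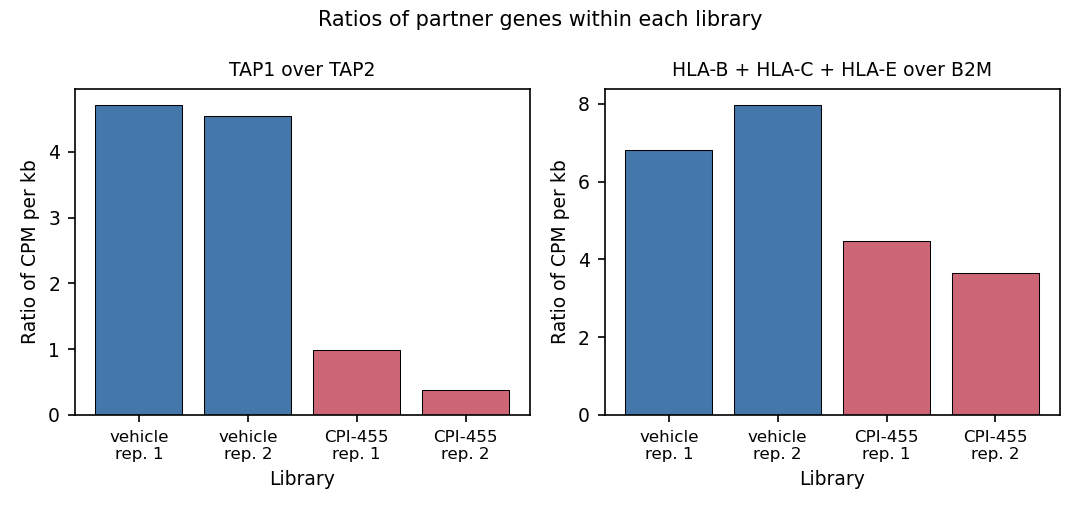
Ratios of CPM per kb (y axes) within each of the 4 libraries (x axes), for TAP1 over TAP2 (left) and for HLA-B, HLA-C and HLA-E summed over B2M (right), with vehicle in blue and CPI-455 in red. The TAP1 to TAP2 ratio was 4.72 and 4.54 in the vehicle libraries against 0.990 and 0.384 in the CPI-455 libraries.

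On the scale of CPM per kb, TAP1 was 4.72 and 4.54 times the level of TAP2 with vehicle, and 0.990 and 0.384 times with CPI-455 (exact permutation test, 2-sided, p = 0.3333, the smallest value possible here). With vehicle TAP1 was thus the more abundant subunit transcript, whereas with CPI-455 it was not above TAP2 in either library. TAP2 shared 32.3% of its exon bases with an unnamed overlapping gene on the same strand (ENSG00000250264), and fragments in those bases were counted for neither gene, so its level per kb is too low. TAP1 shared 9.96% of its exon bases with PSMB8-AS1 on the opposite strand, which had 1 and 1 counts in the vehicle libraries against 8 and 8 in the CPI-455 libraries. Over the exon bases that no other gene shares, a length chosen after seeing the data, TAP1 was 3.55 and 3.42 times the level of TAP2 with vehicle and 0.745 and 0.289 times with CPI-455. Around the TAP genes in the class II region of chromosome 6, HLA-DOB and HLA-DMB, which encode chains of class II accessory molecules, were called higher, with log2 fold changes of 1.64 (SE 0.40, FDR = 0.006037) and 2.26 (SE 0.42, FDR = 0.001301). Both were low, with group means of 1.96 CPM (vehicle) against 6.05 CPM (CPI-455) for HLA-DOB and of 1.53 CPM against 7.50 CPM for HLA-DMB. Of their exon bases, 32.2% in HLA-DOB and 11.5% in HLA-DMB are shared with other genes. HLA-DRB1 and HLA-DPA1, which encode class II chains that present peptides, were called lower. Counts were 93 and 104 against 16 and 0 for HLA-DRB1 (-2.09, FDR = 0.03056) and 70 and 51 against 11 and 4 for HLA-DPA1 (-1.42, FDR = 0.04885). Replicate 2 of CPI-455 was below the limit of 3 counts for HLA-DRB1, so the size of its decrease is uncertain. PSMB9, a subunit gene of the immunoproteasome whose span on the opposite strand holds TAP1, had 0.426 and 0.321 CPM with vehicle, and 0.787 and 1.39 CPM with CPI-455. These rest on 7 to 9 counts in each library, and PSMB9 was not called (1.47, FDR = 0.1227).

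TAPBP (ENSG00000231925, reverse strand of chromosome 6 from 33299694 to 33314387), the gene of tapasin, had 74.4 and 70.3 CPM in the vehicle libraries against 62.2 and 73.0 CPM in the CPI-455 libraries. The groups overlapped, and the log2 fold change was -0.10 with a 95% interval from -0.41 to 0.20 (FDR = 0.5233). ERAP1 (ENSG00000164307, reverse strand of chromosome 5 from 96760810 to 96808100) had 441 and 520 counts in the vehicle libraries against 103 and 33 in the CPI-455 libraries, or 20.9 and 23.8 CPM against 11.6 and 6.54 CPM. Both CPI-455 libraries were lower. ERAP1 changed by -1.25 on the log2 scale (SE 0.27, FDR = 0.002802), a 2.38-fold decrease. ERAP1 lost its call without replicate 2 of CPI-455 (-0.99) and with values corrected for exon length and GC content (-0.70). ERAP1 shared 6.94% of its exon bases with other genes, CAST on the opposite strand among them.

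NLRC5 (ENSG00000140853, forward strand of chromosome 16 from 56989485 to 57083531) was the lowest of the 9 genes, with 105 and 55 counts in the vehicle libraries against 60 and 8 in the CPI-455 libraries. These were 4.97 and 2.52 CPM in the vehicle libraries against 6.75 and 1.59 CPM in the CPI-455 libraries, so each group held a higher replicate 1 and a lower replicate 2 and the groups overlapped. The log2 fold change of 0.25 had a 95% interval from -1.07 to 1.56 (FDR = 0.7343), and the replicates of each group differed by more than the group means. It was 0.81 and past the FDR threshold without replicate 2 of CPI-455, -0.24 without replicate 2 of vehicle, and -1.25 and called lower without replicate 1 of CPI-455, so single libraries decided its direction and its call.

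Per kb of annotated exon, the order of mean levels with vehicle was HLA-C (85.6 CPM per kb), HLA-B (49.1), HLA-E (25.6), B2M (21.7), TAPBP (14.3), TAP1 (10.2), ERAP1 (2.81), TAP2 (2.20) and NLRC5 (0.302), and no neighbours in that order overlapped between their replicates. With CPI-455 the order was HLA-C (48.2), HLA-B (40.7), B2M (28.2), HLA-E (24.7), TAPBP (13.4), TAP2 (3.92), TAP1 (2.75), ERAP1 (1.14) and NLRC5 (0.336). There HLA-C and HLA-B, B2M and HLA-E, TAP2 and TAP1, and TAP1 and ERAP1 overlapped between replicates. Over unshared exon bases only, TAP2 (3.25) stood above ERAP1 (3.02) with vehicle, with overlapping replicates, and HLA-B (49.6) stood above HLA-C (48.2) with CPI-455, also with overlapping replicates. There TAP1 (3.06) was below TAP2 (5.79) and above ERAP1 (1.23) with CPI-455 without overlap. The exon lengths are those of all annotated transcripts of a gene joined, so a gene with long rare transcripts is placed too low. Near-identical sequence among the class I genes was limited at 50 bases. Of the windows of that length in the exons, 7.27% in HLA-C, 6.51% in HLA-E and 3.27% in HLA-B occurred again on the main chromosomes, most often in another class I gene, and the share was 8.25% in TAPBP and 4.50% or less in the other genes. Fragments that match several places were left out of the counts, and how the HLA alleles of LNCaP differ from the reference was not tested.

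The genes with the profile nearest to each member over the 4 libraries, among 6841 or 6842 protein-coding genes whose log2 CPM averaged 5 or more, were XRN2 for HLA-B, RPTOR for HLA-C, TPD52 for HLA-E, GTF2E2 for B2M, PHLDA3 for TAP1, BEST1 for TAP2, NOA1 for TAPBP, ZYG11B for ERAP1 and LAMTOR1 for NLRC5. The Euclidean distance of the mean-centred log2 CPM was 0.0185 for HLA-B, 0.160 for TAP1 and 0.932 for NLRC5. None of these nearest genes was another member, but TAP1, TAP2, ERAP1 and NLRC5 were below the level required and could not be chosen.

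Genes around the pathway were followed as lists in the same test. Of 11 tested genes for other class I-like chains, 2 were called higher and 4 lower. HLA-F, a class I heavy chain with limited polymorphism, had 8.33 and 5.998 CPM in the vehicle libraries against 35.5 and 30.3 CPM in the CPI-455 libraries, with a log2 fold change of 2.21 (SE 0.23, FDR = 3.302e-05), while 28.5% of its exon bases are shared with other genes. MICA and MICB, ligands of the NK cell receptor NKG2D, differed in direction, with log2 fold changes of 1.37 (FDR = 0.003465) and -1.07 (FDR = 0.00869). ULBP3, another NKG2D ligand, had 10.2 and 9.80 CPM in the vehicle libraries against 0.450 and 0.397 CPM in the CPI-455 libraries (log2 fold change -4.51, FDR = 2.364e-05). Its CPI-455 values rest on 4 and 2 counts. Replicate 2 of CPI-455 was thus below the limit of 3 counts, so the size of the decrease is uncertain. AZGP1, a secreted protein with a class I fold, was called lower (-1.72, FDR = 0.002771), and FCGRT, the heavy chain of the neonatal Fc receptor, was not called (0.07). MR1, which presents microbial metabolites to MAIT cells, fell as well, by 1.96 on the log2 scale (FDR = 3.996e-04). The class I pseudogene HLA-L was called higher (2.24, FDR = 2.191e-04), and the other 2 tested pseudogenes were not called.

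Among 8 chaperones and enzymes that fold and load class I molecules, 3 were called lower and none higher, against 24.4% and 15.6% of the protein-coding genes tested. CANX, the gene of calnexin, which holds new heavy chains, had 2653 and 3061 CPM in the vehicle libraries against 414 and 437 CPM in the CPI-455 libraries. This was a 6.72-fold decrease with a log2 fold change of -2.75 (SE 0.12, FDR = 5.835e-07). GANAB, the catalytic subunit of glucosidase II, had a log2 fold change of -1.69 (FDR = 2.881e-06), and PDIA3 (ERp57), a partner of tapasin in the loading complex, one of -1.17 (FDR = 4.327e-05). CALR, the gene of calreticulin, had 562 and 553 CPM in the vehicle libraries against 479 and 423 CPM in the CPI-455 libraries, and was not called (-0.31, FDR = 0.03387). ERAP2, the partner aminopeptidase of ERAP1, was low at 1.56 and 2.06 CPM in the vehicle libraries against 0.900 and 3.97 CPM in the CPI-455 libraries and was not called.

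The immunoproteasome subunits were near the limit of detection. PSMB8 had 0 and 2 counts in the vehicle libraries against 4 and 0 in the CPI-455 libraries and was not tested, and PSMB10 had 14 and 14 counts against 17 and 4. The PA28 activator was better measured. PSME2 had 28.4 and 26.7 CPM in the vehicle libraries against 94.0 and 102 CPM in the CPI-455 libraries (log2 fold change 1.83, SE 0.13, FDR = 4.476e-06) and was the only gene called of the 4 tested in this list. PSME1, its partner, had a log2 fold change of 0.80 (FDR = 0.002495) and was not called. Of the constitutive counterparts, PSME3 was called lower (-1.67, FDR = 5.293e-06), and PSMB5, PSMB6 and PSMB7 were not called, at -0.53, 0.33 and 0.50. None of 6 cytosolic peptidases was called. NRDC had 128 and 128 CPM with vehicle, and 265 and 246 CPM with CPI-455, and its log2 fold change of 0.9968 lay just under the threshold, so that 1 peptidase was called under 7 of the other settings that kept all libraries, among them DESeq2, and 2 without replicate 2 of CPI-455. THOP1 was not called (0.78).

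**Figure D4:**
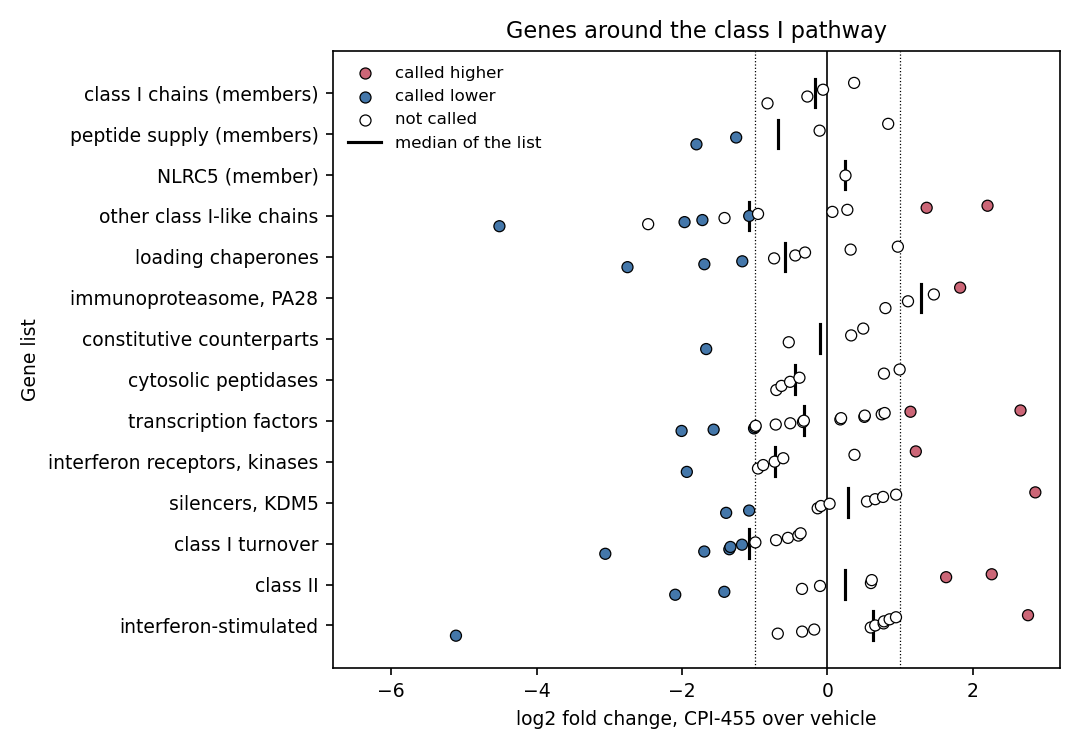
Log2 fold change of CPI-455 over vehicle (x axis) for every tested gene of each list around the class I pathway (y axis), coloured by call, with a bar at the median of the list and dotted lines at 2-fold. All 10 tested genes of class I turnover lie below 0, while most lists spread to either side; IFIT2, which had no counts with CPI-455, is not drawn.

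Of 17 transcription factor genes known to act on class I promoters, 2 were called higher and 3 lower. NFYA, a subunit of the CCAAT-binding factor NF-Y, had 79.7 and 72.1 CPM in the vehicle libraries against 18.7 and 19.2 CPM in the CPI-455 libraries (log2 fold change -2.0038, FDR = 5.303e-06), and its partners NFYB and NFYC were not called (-0.51 and -0.32). The RFX subunits differed, with RFXANK called higher (1.15, FDR = 1.375e-04) and RFX5 (0.79) and RFXAP (-0.71) not called. NFKB1 was called lower (-1.56, FDR = 4.736e-05). IRF1, an interferon-induced activator of class I genes, had a log2 fold change of -0.99 (FDR = 0.00783), just short of 2-fold, and IRF2 was not called (-0.33). IRF9 was called higher (2.66, FDR = 0.004569) from 24 and 16 counts in the vehicle libraries against 79 and 13 in the CPI-455 libraries, with 48.4% of its exon bases shared with other genes. USF2, the highest gene of the list with RFX5, was not called (0.18). CIITA, the class II transactivator, had 0.994 and 0.916 CPM with vehicle, and 1.35 and 1.59 CPM with CPI-455, and was not called (0.60, FDR = 0.4235).

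Of 7 tested interferon receptors and kinases, IFNAR1 was called lower (-1.93, FDR = 6.615e-06), TYK2 higher (1.22, FDR = 1.194e-04), and 5 were not called, JAK1 (-0.95) among them. With library totals alone 4 of the 7 were called, and also without replicate 2 of CPI-455. Interferon-stimulated genes were low in all libraries, with a summed level of 34.9 and 34.98 CPM in the vehicle libraries against 74.2 and 81.5 CPM in the CPI-455 libraries over 16 genes. Most of the difference in this sum came from ISG15, which was called higher, with 5.59 and 7.51 CPM against 38.4 and 51.4 CPM. Of the 12 tested, 2 were called lower. Without replicate 2 of CPI-455, 5 were called in all. IFIT2, 1 of these 2, had 59 and 35 counts in the vehicle libraries against none in the CPI-455 libraries, which is at least 4.72-fold lower against a limit of 3 counts in each CPI-455 library, and IFIT3, the other, had 63 and 58 counts against 0 and 1. BST2 was not called (0.95). Of 8 tested class II genes, 2 were called higher and 2 lower, and 4 calls became 2 without replicate 1 of vehicle, 1 without replicate 2 of vehicle and 2 with at least 10 counts in every library. HLA-DQB1, the highest of them, was not called (-0.35).

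Among 10 silencers of class I genes and demethylases, PCGF1, of the Polycomb PRC1.1 complex, was called higher, with 17.8 and 15.3 CPM against 129 and 112 CPM (log2 fold change 2.86, FDR = 9.485e-07). SUZ12, of PRC2, was called lower (-1.39, FDR = 1.333e-05), and EZH2, its catalytic partner, was not called, at 106 and 112 CPM in the vehicle libraries against 104 and 101 CPM in the CPI-455 libraries. Of the targets of the inhibitor, KDM5B was called lower, with a log2 fold change of -1.07 (SE 0.12, FDR = 4.915e-05), and KDM5A (0.77) and KDM5C (0.03) were not called. The inhibitor acts on the enzymes, so their transcripts do not check the treatment. Genes that remove class I molecules from the cell or from the endoplasmic reticulum had negative log2 fold changes in all 10 tested, of which 5 were called lower, with a median log2 fold change of -1.08, against -0.21 over the protein-coding genes tested, of which 24.4% were called lower. TMEM127, which with SUSD6 and WWP2 directs class I molecules to lysosomes, had 85.8 and 81.8 CPM in the vehicle libraries against 11.4 and 8.33 CPM in the CPI-455 libraries (-3.05, FDR = 1.522e-06). SUSD6 was called lower as well (-1.17, FDR = 3.637e-04), and WWP2 was not called (-0.54). UBE2J1 and DERL1, which serve the removal of misfolded proteins from the endoplasmic reticulum, had log2 fold changes of -1.69 and -1.35, both called lower. SPPL2A, an intramembrane protease, was called lower (-1.33, FDR = 1.564e-04), and HM13, the signal peptide peptidase and highest gene of the list, was not called (-0.99). With values corrected for exon length and GC content, 2 of the 10 turnover genes were called.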

How the data were processed

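Gene expression was measured by RNA sequencing in 2 libraries of LNCaP cells with R1881 and vehicle and 2 with R1881 and CPI-455, grouped by the sample labels. The authors trimmed reads with TrimGalore, used STAR for alignment to GRCh38, and counted fragments by featureCounts 1.5.0-p1 on Ensembl release 83, without strand or multi-mapping fragments. The deposited values are raw fragment counts per gene for each library. How RNA was selected is not given in the sources used here, and the labels and the methods differ on the DMSO concentration of the vehicle.

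Symbols were matched for 56558 of 60675 genes, and GENCODE release 44 gave gene types. Counts were compared with edgeR 4.0.16 in R 4.3.3 (TMM, filterByExpr with a minimum of 10 counts, glmQLFit and glmQLFTest), and genes with an FDR below 0.05 and at least 2-fold change were called, the thresholds of the study. The test was checked on simulated data, and the outcome of that check is not reported here. Standard errors are the log2 fold change over the root of the F statistic. Levels per kb divide CPM by the joined exon length of Ensembl release 83. Alternatives included DESeq2 1.42.0 and a correction of the fold changes for exon length and GC content by a smooth curve (mgcv 1.9.3).

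The members and lists were chosen with earlier results of these data known. The rule for named genes took all members, from each list the called genes with the largest change (up to 4) and the highest levels (up to 2), set regulators and neighbours, and the nearest profile of each member; of the marker lists and pseudogenes not all of these are named; other genes, named as partners of these, were chosen after their values were seen. Nothing says whether replicates came from separate cultures beyond the study calling them biological replicates, and p-values measure the spread between 2 libraries in each group. Values of some genes of the lists are not reported here.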

Additional observations from a re-analysis of the deposited data

How the results depend on the processing

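Of 15 alternatives, TAP1 was called lower in each, and HLA-C, TAP1 and ERAP1 were lower and B2M and TAP2 higher in each. The value of TAP2 was 0.74 to 0.88 with a library left out, past the FDR threshold in 3 of 4 fits, and that of B2M was 0.18 with library totals alone, 0.22 with no filter (neither past the FDR threshold) and 0.21 to 0.46 with a library left out, past it only without CPI-455 replicate 1. HLA-B passed the FDR threshold with library totals (-0.46), with no filter (-0.43), with the likelihood-ratio test (-0.27) and with values corrected for exon length and GC content, without (-0.48) and with the replicate block (-0.48), and was -0.36 to -0.25 with a library left out, past the threshold without CPI-455 replicate 2. HLA-E turned to 0.12 both with upper-quartile normalization and with only protein-coding genes counted, a setting chosen after seeing the data, and was -0.31 (past the threshold, without CPI-455 replicate 2) to 0.12 with a library left out. TAPBP turned to 0.0715 and 0.0766 in these 2 settings. NLRC5 was -0.24 without vehicle replicate 2 and -1.25 to 0.81 over the libraries left out, and a minimum of 10 counts in every library removed it from the test. The number of members called was 2, and was 1 with glmTreat against a 2-fold change, 5 at the FDR threshold alone and 1 to 4 with a library left out. It was 3 with upper-quartile normalization and protein-coding genes only (TAP2 added), library totals (HLA-C added), and correction for exon length and GC content (HLA-C and TAP2 added, ERAP1 lost). Over all genes, 7454 were called, and 4805 with glmTreat. The replicate numbers are shared by the groups, and the replicate differences of the 2 groups had a correlation of 0.04 over the genes tested. A single pair of differences cannot settle whether same-numbered libraries shared a batch. With the replicate block 7167 genes and 2 members were called, and no call of a member changed. Fits with 3 libraries assume that the lone library of a group varies like those of the other group. Over the same 17600 genes, the median of -0.04 became 0.14 with upper-quartile normalization and -0.23 with library totals, and changes there include that shift. With no filter (-0.41) and without CPI-455 replicate 1 (-0.19) the median is taken over a different set of genes. It therefore does not measure the shift of a member. The protein-coding genes had a median of -0.21 in the main test and -0.03 with only these genes counted, so changes there include a shift too. Of the genes called, 49.6% were higher, 58.1% were so with upper-quartile normalization and 40.7% with library totals. Each member had 1 copy, so summing copies was not run. The depth of the CPI-455 libraries limits NLRC5, TAP1 and ERAP1 most, with 8, 33 and 33 counts in replicate 2. The cause of these differences was not tested. Over unshared exon bases the mean TAP1 to TAP2 ratio with vehicle was 3.48 in place of 4.63, and the HLA-C share of the heavy chains 50.01% in place of 53.4%.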
